A study of Mus musculus with 6 samples.

Results

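The vacuolar ATPase is a rotary proton pump built from a cytosolic sector, V1, which hydrolyses ATP, and a membrane sector, V0, which carries the protons. The genes described here encode V0 and its accessory proteins. They were taken by symbol from the deposited tables, and 10 of 10 were found once each among the 26699 genes listed. They are Atp6v0a1, Atp6v0a2 and Tcirg1, which encode variants of the a subunit, Atp6v0b and Atp6v0c, which encode the proteolipids of the rotating ring, Atp6v0d1 and Atp6v0d2, which encode variants of the d subunit, Atp6v0e, and the accessory genes Atp6ap1 and Atp6ap2. The choice used no measured value of these libraries as a threshold, but it was made with earlier results of these data known. All 10 passed the filter on low counts.

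Primary macrophages were grown from the hindlimb marrow of mice aged 8 weeks, first with 10 ng/mL M-CSF, a macrophage growth factor. They were then cultured with 30 ng/mL M-CSF and 50 ng/mL RANKL, which drives macrophages towards the osteoclast fate, and RNA was taken after 48 hours. Control cells were Slc11a2flox/flox without Cre, and the conditional knockout (cKO) cells were LysmCre-Slc11a2flox/flox, with 3 libraries per genotype. Slc11a2 encodes the divalent metal transporter DMT1, and LysmCre expresses Cre recombinase from the lysozyme M locus, which is active in myeloid cells. Both groups carried the floxed alleles and the same cytokines, and Cre was present in cKO cells only, so that effects of Cre and of Slc11a2 loss cannot be told apart. The labels name no separate mice or cultures behind the replicates, so the p-values rest on the spread among 3 libraries a genotype, some of which may be technical.

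In osteoclasts the pump is inserted into the ruffled border, the membrane facing bone, where the acid it secretes dissolves mineral. Subunit a holds the channels through which protons enter and leave the ring, the ring proteolipids carry them across the membrane, and subunit d couples the ring to the central stalk of V1. Tcirg1 encodes the a3 isoform of osteoclasts, whose loss causes osteopetrosis, and Atp6v0d2 encodes the d2 isoform, which is induced by RANKL and takes part in fusion of osteoclast precursors in mice. Atp6v0a1, Atp6v0a2 and Atp6v0d1 are expressed in many tissues.

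Total counts were 49720701 to 57797282 per library, and the members had 3727 to 72046 reads each in a library. Slc11a2 stood at 110 to 119 CPM (counts scaled to a common library total, with TMM to correct for composition) in control libraries and at 78.3 to 87.4 CPM in cKO libraries. Lyz2, whose locus carries Cre, was at 16032 to 18915 and 7708 to 7892 CPM. Both match the labels of all 6 libraries. Neither value measures how efficient the deletion was, since the counts are per gene and not per exon. Osteoclast markers were abundant in both genotypes, and 9 of 9 were tested. An unadjusted edgeR p under 0.05 was found for 3 of them, beside 2892 of 16843 genes tested. Called were 0 by edgeR, 0 by DESeq2 and 1 by limma-voom, and the markers' median log2 fold change was -0.40. Without cKO replicate 3, edgeR called 6 of them. Their summed level was 10979 to 14373 CPM in control and 7747 to 11301 CPM in cKO libraries. In bulk RNA, fewer cells of a type and less RNA per cell cannot be told apart.

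Promoter sequences of 8 of the 10 members were found in the RefSeq table for GRCm38.p6, the assembly of mm10, each running from 250 bases before to 50 bases after a transcript start. The search was for the E-box CACGTG, which reads the same on both strands, and for the longer TCACGTG on either strand, which contains it. These letters are bound by the TFEB and MITF family of transcription factors, known regulators of lysosomal genes. CACGTG was found in 3 of the 8 genes, against 8.09% of the 27025 genes in the table (7.15% of its 32851 promoters). TCACGTG was found in the same 3 genes, against 4.29% of genes. The stretches of all 3 genes are shown with CACGTG in capitals. Of the 3 genes, 2, Atp6v0b and Atp6v0d1, are among the called genes described below. Atp6v0e was not called, and the promoters of the other called genes, Atp6v0c and Atp6ap2, held no CACGTG. No other sequence was searched for, so a promoter without CACGTG may still hold a site for these factors. A link between the motif and the differences was not tested. The stretches run 5′ to 3′ on the gene's strand, at chr4:117887330-117887405 (minus strand), chr8:105566062-105566107 (minus strand) and chr17:26676359-26676404 (plus strand).
Atp6v0b: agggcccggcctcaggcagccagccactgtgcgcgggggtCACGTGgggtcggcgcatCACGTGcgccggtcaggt
Atp6v0d1: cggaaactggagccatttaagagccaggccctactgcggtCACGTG
Atp6v0e: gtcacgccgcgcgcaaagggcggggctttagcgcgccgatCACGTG
The promoter of Atp6v0b holds 2 copies, which begin 36 and 18 bases before the start. The copy of Atp6v0d1 begins 3 bases before it and that of Atp6v0e just after it. A match describes the letters in this window and not binding of a factor.

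Of the 10 members, 0 rose and 4 fell in cKO cells at a Benjamini-Hochberg adjusted p below 0.05 in edgeR's quasi-likelihood test. The genes that fell were Atp6v0b, Atp6v0c, Atp6v0d1 and Atp6ap2, by 16.2% to 19.3%. Over all 16843 genes tested, 2.42% were called, 1.06% as lower and 1.36% as higher in cKO cells. The members' median log2 fold change was -0.19, beside 0.00 over all genes tested, and 6 of 10 had an unadjusted p under 0.05, beside 2892 of 16843. The osteoclast-enriched Tcirg1 and Atp6v0d2 were not among the genes called, and neither were Atp6v0a1 and Atp6v0a2. All 3 cKO libraries lay below all 3 control libraries in 4 members, the called ones, and in 11.4% of all genes tested. The number of members called was 4 with DESeq2 and 3 with limma-voom. Over the whole table edgeR called 407 genes with all 6 libraries, DESeq2 874 and limma-voom 581. Members called numbered 1 without control replicate 2 and 2 without cKO replicate 3, where 166 and 624 genes were called. They numbered 0 without any of the other 4 libraries, where 59 to 235 genes were called. No member was called once a trend over gene length was removed from each library, where 360 genes were called.

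**Figure D1:**
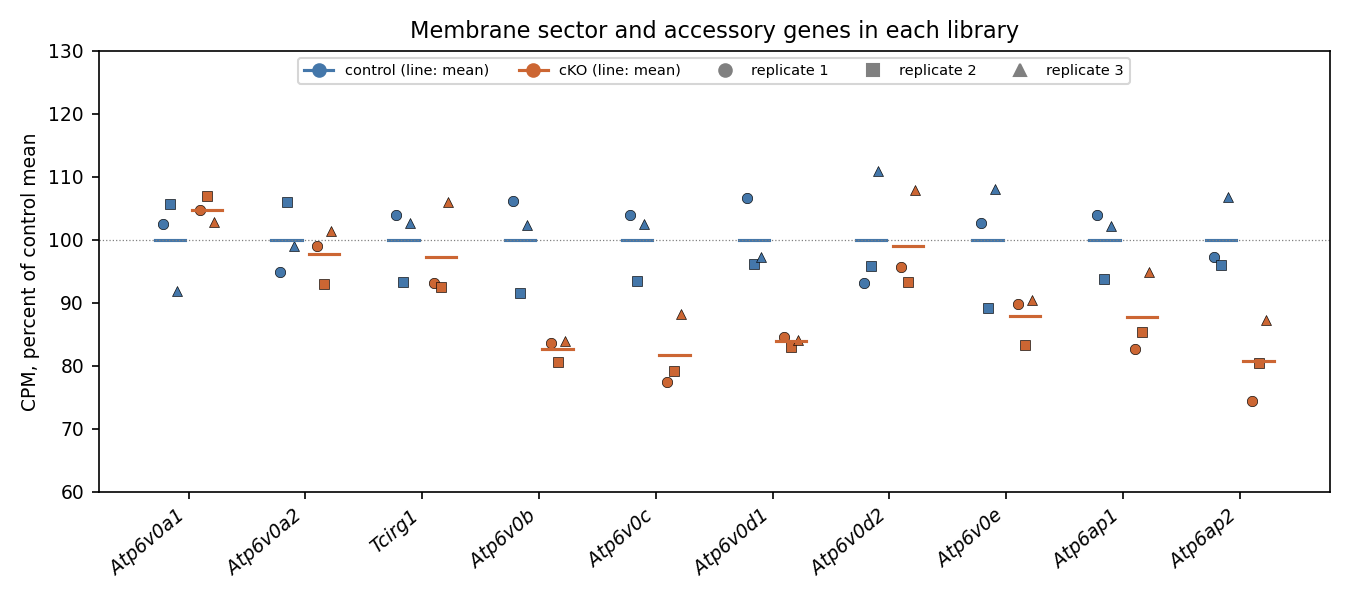
CPM of each member in each library as a percent of the mean of the 3 control libraries (vertical axis, starting at 60%), with control libraries in blue, cKO libraries in orange, a marker shape per replicate and a line at each group's mean. The cKO points lie wholly below the control points for Atp6v0b, Atp6v0c, Atp6v0d1 and Atp6ap2, and the groups overlap for the other 6 genes.

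The genes for the a subunit overlapped between genotypes. Tcirg1 (ENSMUSG00000001750, chromosome 19, 3896050 to 3907112, minus strand, mm10) stood at 1042, 936 and 1029 CPM in the control libraries (here and below in the order of replicates 1 to 3) and at 934, 927 and 1063 CPM in the cKO libraries. The highest value was a cKO library, and the groups overlapped throughout. Its log2 fold change was -0.04 (95% interval -0.19 to 0.12, adjusted p = 0.825 in edgeR's quasi-likelihood test). Atp6v0a1 (ENSMUSG00000019302, chromosome 11, 101009452 to 101063719, plus strand), the isoform best known from synaptic vesicles and lysosomes, was at 321, 331 and 288 CPM in the control libraries and 328, 335 and 322 CPM in the cKO libraries. It was the 1 member with a positive estimate, 0.07 (-0.07 to 0.20, adjusted p = 0.635), and the cKO libraries lay within or just above the control range. Atp6v0a2 (ENSMUSG00000038023, chromosome 5, 124628576 to 124724455, plus strand), an isoform of the Golgi and endosomes, was at 71.6, 79.9 and 74.7 CPM in the control libraries and 74.7, 70.1 and 76.4 CPM in the cKO libraries. Its log2 fold change was -0.03 (-0.17 to 0.11, adjusted p = 0.839), with no ordering of the genotypes and values of -0.07 to 0.01 when a library was left out. The interval of the difference thus reached 0.20 on the log2 scale at most among these genes. Atp6v0a4, the isoform of kidney, had 4 reads in control replicate 3 and 0 in the other 5 libraries.

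Both ring proteolipid genes fell in cKO cells. Atp6v0c (ENSMUSG00000024121, chromosome 17, 24163866 to 24169702, minus strand), which encodes the main ring subunit c, was at 1273, 1144 and 1256 CPM in the control libraries and 949, 970 and 1080 CPM in the cKO libraries. Every cKO library lay below every control library, with cKO replicate 3 the closest. The means were 1224 ± 70.0 and 1000 ± 70.2 CPM (SD, n = 3 per genotype), a log2 fold change of -0.29 ± 0.07 (SE, edgeR adjusted p = 0.0493). This call held without cKO replicate 3 (edgeR adjusted p = 0.0216) and was lost without each other library, at 0.172, 0.0667 and 0.16 without control replicates 1 to 3 and 0.273 and 0.103 without cKO replicates 1 and 2. Reads of this gene may be shared with Atp6v0c-ps2, a processed pseudogene chosen after its values were seen, which was at 70.8 to 78.7 CPM in control and 57.7 to 63.2 CPM in cKO libraries (-0.29 ± 0.06, edgeR adjusted p = 0.0382). The sources used here do not give how the authors assigned reads that match both.

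Atp6v0b (ENSMUSG00000033379, chromosome 4, 117884326 to 117887333, minus strand) encodes the larger ring proteolipid c″. It was at 283, 244 and 273 CPM in the control libraries and 223, 215 and 224 CPM in the cKO libraries. The cKO libraries lay close together, below all controls, and control replicate 2 was the lowest control. The log2 fold change was -0.27 ± 0.06 (SE, n = 3 per genotype, edgeR adjusted p = 0.0483). The call held without control replicate 2 (edgeR adjusted p = 0.0363) and was lost at 0.179 and 0.167 without control replicates 1 and 3 and at 0.218, 0.103 and 0.0561 without cKO replicates 1 to 3. In GENCODE M21 an antisense gene, Gm12841, overlaps Atp6v0b on the other strand, and the sources used here do not give whether counting used the strand. The same limit applies to Atp6v0a2, which the genes 4930404A12Rik and Gm24854 overlap on the other strand.

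The d subunit genes were called differently. Atp6v0d1 (ENSMUSG00000013160, chromosome 8, 105524465 to 105566047, minus strand) was at 203, 183 and 185 CPM in the control libraries and 161, 158 and 160 CPM in the cKO libraries. The cKO libraries lay close together and all below the controls, of which replicate 1 was the highest. Its log2 fold change was -0.26 ± 0.06 (SE, n = 3 per genotype, edgeR adjusted p = 0.0415). That call was lost without each library in turn, with edgeR adjusted p of 0.141, 0.0732 and 0.118 without control replicates 1 to 3 and 0.191, 0.0811 and 0.0561 without cKO replicates 1 to 3. Atp6v0d2 (ENSMUSG00000028238, chromosome 4, 19876841 to 19922605, minus strand) was at 786, 809 and 936 CPM in the control libraries and 807, 787 and 911 CPM in the cKO libraries. Replicate 3 was the highest library of each genotype, and the groups covered nearly the same range. The log2 fold change was -0.01 (95% interval -0.19 to 0.16, edgeR adjusted p = 0.953), and its sign depended on the setting, with -0.08 to 0.07 when a library was left out.

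Atp6v0e and the accessory genes gave negative estimates, and 1 of these 3 genes was called. Atp6ap2 (ENSMUSG00000031007, chromosome X, 12587801 to 12617049, plus strand), which encodes the prorenin receptor and is needed to assemble the pump, was at 324, 320 and 356 CPM in the control libraries and 248, 268 and 291 CPM in the cKO libraries. All cKO libraries lay below all controls, with cKO replicate 1 the lowest. Means of 333 ± 20.0 and 269 ± 21.9 CPM (SD, n = 3 per genotype) gave a log2 fold change of -0.31 ± 0.07 (SE, edgeR adjusted p = 0.0415). The call held without cKO replicate 3 (edgeR adjusted p = 0.0165) and was lost at 0.119, 0.0803 and 0.162 without control replicates 1 to 3 and at 0.252 and 0.0796 without cKO replicates 1 and 2.

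Atp6ap1 (ENSMUSG00000019087, chromosome X, 74297097 to 74304721, plus strand) encodes Ac45, a glycoprotein that guides the pump to secretory membranes and the ruffled border. It was at 731, 660 and 719 CPM in the control libraries and 582, 601 and 667 CPM in the cKO libraries. Only cKO replicate 3 reached the control range, just above control replicate 2. The log2 fold change of -0.19 (95% interval -0.34 to -0.04) had an unadjusted p of 0.0169 and an adjusted p of 0.18 in edgeR's quasi-likelihood test. Atp6v0e (ENSMUSG00000015575, chromosome 17, 26663231 to 26699647, plus strand), which encodes the small membrane subunit e, was at 175, 152 and 184 CPM in the control libraries and 153, 142 and 154 CPM in the cKO libraries. Control replicate 2 lay among the cKO libraries. The estimate was -0.19 (-0.35 to -0.03), with an unadjusted p of 0.0209 and an adjusted p of 0.201 by the same test. Its paralog Atp6v0e2 was close to absent in both genotypes, at 0.209 to 0.488 CPM in control and 0.694 to 1.13 CPM in cKO libraries (adjusted p = 0.178 in edgeR). Atp6ap1l was not analysed here.

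**Figure D2:**
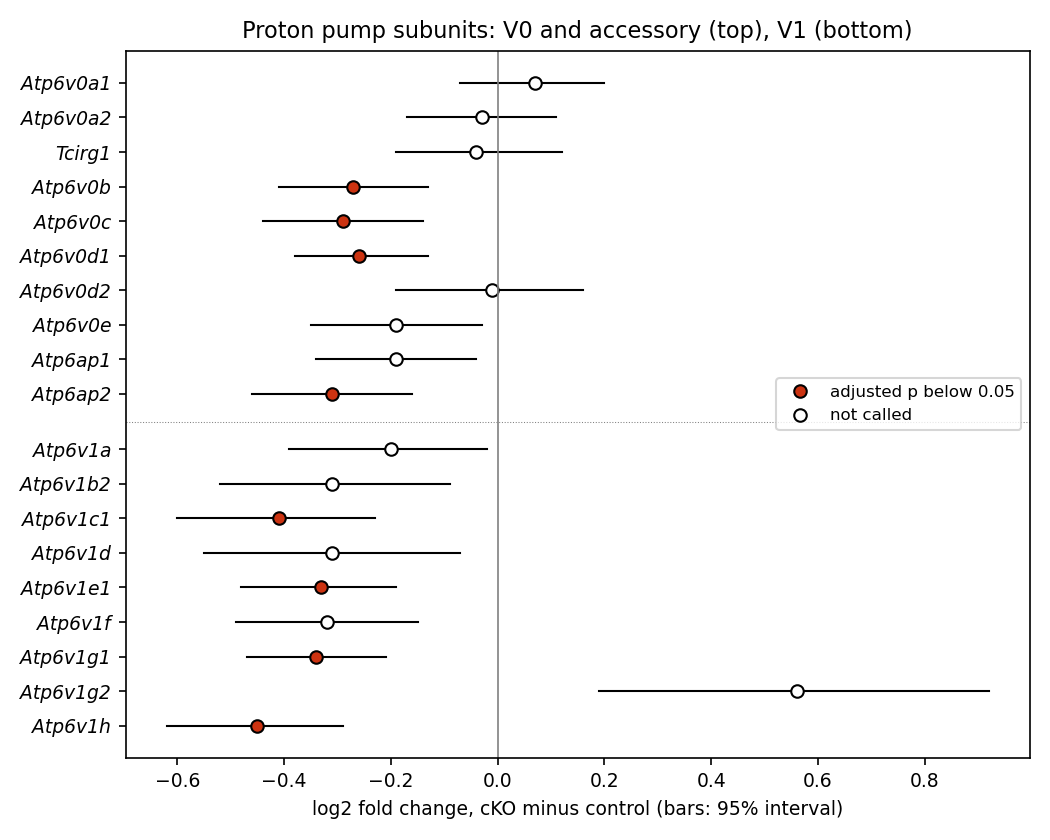
Log2 fold change of cKO against control (horizontal axis) with its 95% interval for the 10 members (top) and the 9 tested genes of the V1 sector (bottom), where filled points mark an edgeR adjusted p below 0.05. The intervals of Tcirg1, Atp6v0a1, Atp6v0a2 and Atp6v0d2 span 0, and those of the other 6 members lie below it.

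The members differed widely in level. On the authors' FPKM scale, which corrects for gene length, control means ran from 313 ± 18.2 for Atp6v0c through 268 ± 27.0 for Atp6v0d2, 201 ± 11.0 for Atp6ap1, 188 ± 11.1 for Tcirg1, 112 ± 8.77 for Atp6v0b and 110 ± 7.10 for Atp6ap2 (SD, n = 3). Atp6v0d1 was at 91.8 ± 5.12 FPKM, Atp6v0a1 at 41.3 ± 2.81, Atp6v0e at 39.7 ± 3.86 and Atp6v0a2 at 9.68 ± 0.541. Neighbours whose control libraries overlapped, and whose order is therefore not fixed, were Atp6v0c with Atp6v0d2, Atp6ap1 with Tcirg1, Atp6v0b with Atp6ap2, and Atp6v0a1 with Atp6v0e. In cKO libraries Atp6v0d2 was at 268 ± 20.8 FPKM and Atp6v0c at 257 ± 18.4 FPKM. The lengths implied by counts and FPKM were 1.15 times the union of all annotated exons for every member, retained introns included, when the deposited counts were summed as the library total. The total behind the FPKM values was therefore not that sum, and the FPKM serve here for the order of genes and for ratios, not as absolute levels. Per kilobase of the longest coding transcript of GENCODE M21, Atp6v0c stood well above the rest, at 1035 ± 59.2 CPM per kilobase in control libraries. On that scale Atp6v0d2 (332 ± 31.9), Tcirg1 (330 ± 19.0) and Atp6ap1 (321 ± 17.3) overlapped.

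**Figure D3:**
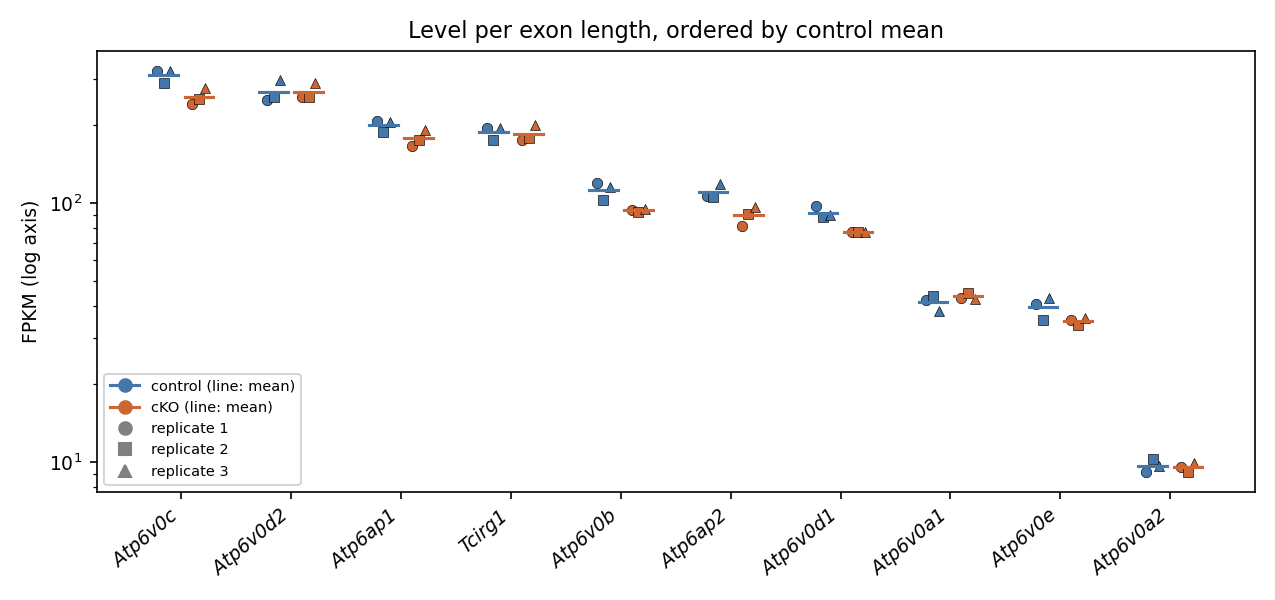
FPKM of each member in each library (logarithmic vertical axis), ordered by control mean, with control libraries in blue, cKO libraries in orange and a line at each group's mean. Atp6v0c and Atp6v0d2 are the most abundant and Atp6v0a2, near 9.68 FPKM in control cells, the least.

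The osteoclast-enriched isoforms made up most of their subunit's transcripts in both genotypes. Of the summed FPKM of Atp6v0d1 and Atp6v0d2, Atp6v0d2 held 71.8%, 74.5% and 76.9% in the control libraries and 76.8%, 76.7% and 79.0% in the cKO libraries. Control replicate 3 lay among the cKO libraries, so the groups overlapped. The log2 ratio of Atp6v0d2 to Atp6v0d1 was 1.54 ± 0.19 in control and 1.79 ± 0.11 in cKO cells (SD, n = 3), a difference of 0.24 with a two-sided exact permutation p of 0.3. That exact test has 20 splits and a smallest p of 0.1, so it could not pass 0.05 at any size of difference. The call of Atp6v0d1 and the lack of one for Atp6v0d2 do not by themselves show that the isoforms differed in response. Without control replicate 1 the difference was 0.15. Without control replicate 3 it was 0.34 and the groups no longer overlapped (exact permutation p = 0.1, the smallest possible there).

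Tcirg1 held 79.2%, 76.5% and 80.2% of the summed FPKM of Tcirg1, Atp6v0a1 and Atp6v0a2 in the control libraries, and 76.8%, 76.6% and 79.2% in the cKO libraries. In this case too the groups overlapped. The log2 ratio of Tcirg1 to the sum of the other two differed by -0.09 between genotypes (exact two-sided permutation p = 0.7, n = 3 per genotype), and by -0.18 without control replicate 2, -0.16 without cKO replicate 3 and -0.02 without control replicate 3. Per kilobase of coding transcript the shares were 78.1% ± 1.96 in control and 76.9% ± 1.52 in cKO cells for Tcirg1 and 73.9% ± 2.58 and 77.0% ± 1.35 for Atp6v0d2 (SD, n = 3).

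**Figure D4:**
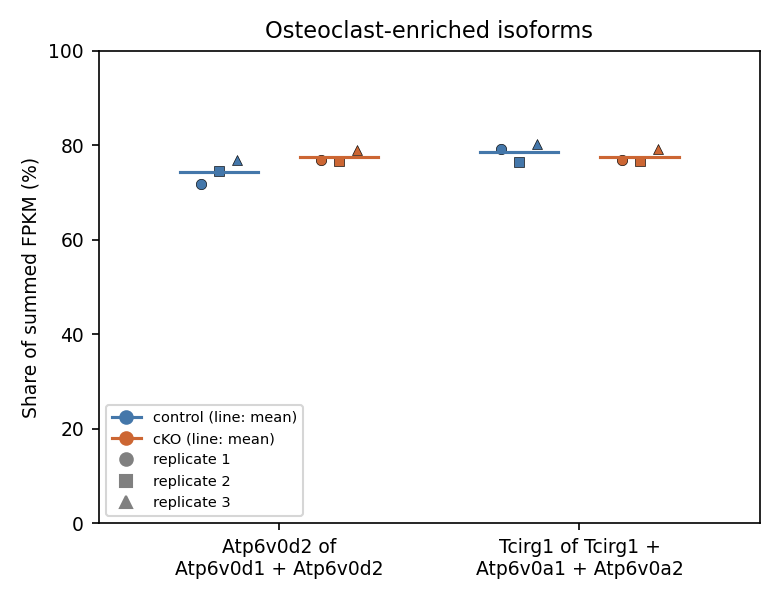
Share of the summed FPKM (vertical axis, percent) held by Atp6v0d2 among the d subunit genes and by Tcirg1 among 3 a subunit genes, for each library with a line at each group's mean. All shares lie between 71.8% and 80.2%, and the genotypes overlap for both subunits.

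Among general markers of osteoclasts, Acp5, the tartrate-resistant acid phosphatase, was at 2889, 2504 and 3312 CPM in the control libraries and 1751, 1760 and 2401 CPM in the cKO libraries (-0.56, edgeR adjusted p = 0.125). Nfatc1, the transcription factor that drives osteoclast genes, was at 356, 342 and 419 and at 304, 263 and 378 CPM (-0.24, edgeR adjusted p = 0.44). Replicate 3 was the highest library of its genotype for both, as for Atp6v0d2. For Atp6v0d2 all cKO libraries were within the control range, whereas every cKO library for Acp5, and cKO replicates 1 and 2 for Nfatc1, lay below every control. Acp5 was the 1 marker of 9 with such a separation, beside 11.4% of all genes tested. Its estimate was the most negative of the 9. Itgb3 was at the other end, at -0.16 (edgeR adjusted p = 0.755), with overlapping groups. All 9 estimates were negative, among them Mmp9 at -0.45 and Ctsk at -0.40 (edgeR adjusted p = 0.248 and 0.288). None of these genes passed the test, and the difference between them was not tested.

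The V1 genes show how the cytosolic sector compared. Of 13 genes in the list, 9 were tested, 0 rose and 4 fell, with a median log2 fold change of -0.32. Over all genes tested, 2.42% were called. All 9 had an unadjusted p under 0.05 in edgeR, beside 2892 of 16843 genes, and 8 of the 9 estimates were negative. Atp6v1h, a regulatory subunit, fell by 0.45 on the log2 scale (edgeR adjusted p = 0.0115), Atp6v1g1 and Atp6v1e1 of the peripheral stalks fell by 0.34 (0.0129) and 0.33 (0.0284), and Atp6v1c1, which links the stalks to V0, fell by 0.41 (0.0289). Without control replicate 1, control replicate 3 or cKO replicate 1 none of the V1 genes was called, and 7 were called without cKO replicate 3 or with DESeq2. Over the whole table, the fits with no V1 call held 59 to 116 called genes. The fit without cKO replicate 3 held 624 and DESeq2 874, beside 407 in edgeR with all 6 libraries. Without cKO replicate 1 the edgeR adjusted p was 0.108 for Atp6v1h, 0.126 for Atp6v1g1, 0.181 for Atp6v1e1 and 0.175 for Atp6v1c1. Atp6v1c1 was also lost without control replicate 2 (0.0595) and cKO replicate 2 (0.0679). With the trend over gene length described below removed, 3 V1 genes were called, and Atp6v1g1 was at -0.22 (edgeR adjusted p = 0.088).

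The lists of assembly and of acidification held no call. Of 15 genes for assembly and regulation of the pump, 13 were tested, 0 were called and 2 had an unadjusted p under 0.05, with a median of -0.05. Those were Mitf, which encodes a factor of the E-box-binding family, at 112 to 126 CPM in control and 130 to 138 CPM in cKO libraries (0.17, edgeR adjusted p = 0.179), and Tmem199, an assembly factor, at 16.1 to 17.1 and 12.9 to 15.3 CPM (-0.25, 0.244). Tfeb and Tfe3 had log2 fold changes of 0.13 and 0.11 (edgeR adjusted p = 0.588 and 0.361). Of 13 partners in acidification, such as chloride transporters and carbonic anhydrase, 13 were tested, 0 were called and 5 had an unadjusted p under 0.05, with a median of -0.09. For both lists, the count over all genes tested was 2892 of 16843 at an unadjusted edgeR p under 0.05. Ostm1, the partner of the chloride transporter ClC-7, was at 114 to 118 CPM in control and 95.6 to 106 CPM in cKO libraries (-0.20, edgeR adjusted p = 0.101). Slc9a9, an endosomal sodium-proton exchanger, was at 126 to 152 and 111 to 125 CPM (-0.22, 0.157). These had the smallest p and not the largest estimates. Car2, a carbonic anhydrase gene, and Snx10 were at -0.45 and -0.40 (edgeR adjusted p = 0.262 and 0.238). Of the 13 estimates, 8 were negative and 5 positive. DESeq2 called 0 genes of the first list and 1 of the second, and edgeR called 2 of the second without cKO replicate 3.

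The length of a gene moved with the difference between genotypes over the whole table. In 10 equal groups of genes with a mean of at least 8 CPM, the median log2 fold change was -0.12 in the shortest group, which holds Atp6v0d1, and -0.09 in the next, which holds Atp6v0b, Atp6v0d2 and Atp6ap2. It was 0.00 and -0.01 in the groups of the long genes Atp6v0a2 and Atp6v0a1. With the trend removed, the log2 fold changes were -0.18 for Atp6v0b (edgeR adjusted p = 0.16), -0.24 for Atp6v0c (0.0803), -0.15 for Atp6v0d1 (0.16), -0.23 for Atp6ap2 (0.122) and 0.06 for Atp6v0d2 (0.785). The members' median was then -0.14, beside 0.03 over all genes, and 0 members were called. Over all alternatives the adjusted p of the 4 called genes ranged from 0.00139 to 0.273.

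**Figure D5:**
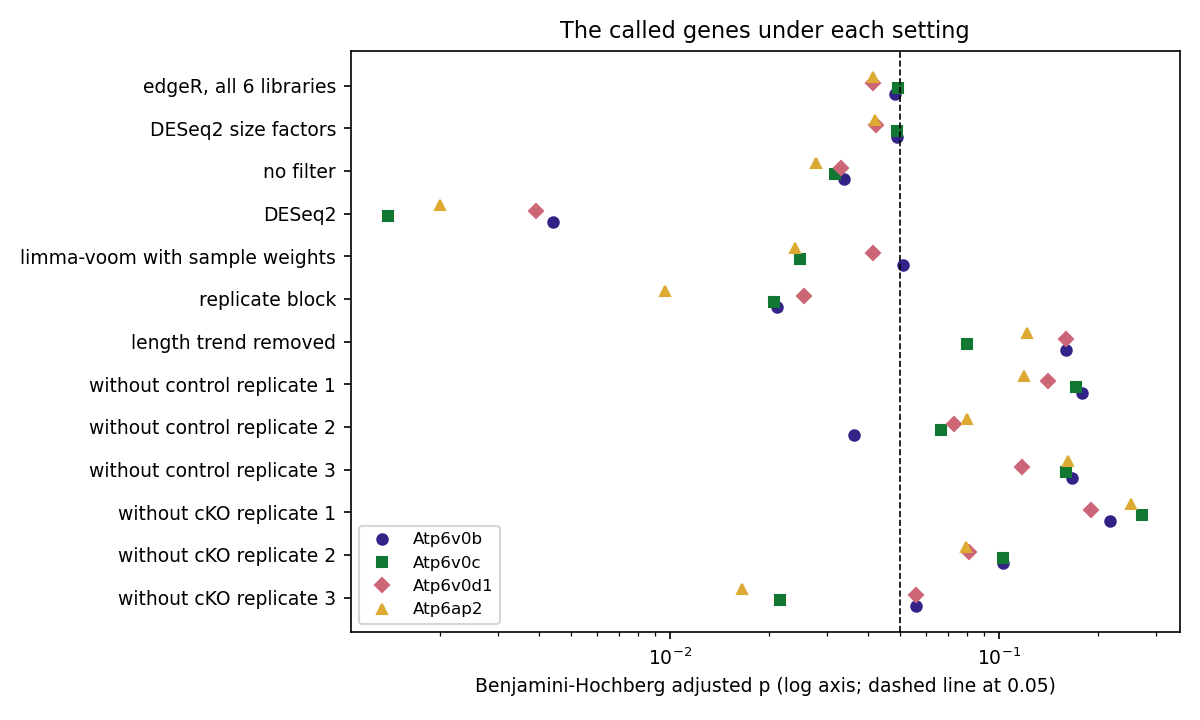
Benjamini-Hochberg adjusted p (logarithmic horizontal axis, dashed line at 0.05) of the 4 called members under each setting, from edgeR unless another tool is named. In the fit of all 6 libraries the points lie between 0.0415 and 0.0493, close to the threshold, and most fits with a library left out, and the fit with the length trend removed, put them to its right.

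Markers of other cell types were examined over the same libraries. Of 10 neutrophil markers, 8 were tested, 4 rose in cKO libraries (S100a8, S100a9, Ngp and Ltf) and 0 fell. Estimates were positive for 7 of the 8 and negative for Mpo, whose means were 0.842 ± 0.422 CPM (control) and 0.479 ± 0.169 CPM (SD, n = 3 per genotype, log2 fold change -0.82, edgeR adjusted p = 0.438). Elane, too low to be tested, had means of 0.302 and 0.0847 CPM. The 10 markers had a summed level of 23.4 to 30.4 CPM in control and 52.3 to 67.9 CPM in cKO libraries. Markers of stroma and osteoblasts were abundant in every library, mainly Col1a1 and Col1a2. The 6 genes summed to 3280 to 3828 CPM in control and 3063 to 4925 CPM in cKO libraries. All 6 estimates were positive, and 1 of 6 genes, Alpl, rose. Alpl was scarce, at 0.279 to 0.865 CPM in control and 2.01 to 2.80 CPM in cKO libraries. With a library left out, 3 to 4 neutrophil markers were called, and Alpl's list held a call only without cKO replicate 3. The part of these cells in the members' differences was not tested. Macrophage markers summed to 5799 to 6383 and 5584 to 5913 CPM, with 0 of 6 called by edgeR or DESeq2. At an unadjusted edgeR p under 0.05 there was 1 of the 6, beside 2892 of 16843 genes tested. The 4 B cell markers with values summed to at most 1.13 CPM, and the 5 erythroid markers with values to at most 1.31 CPM. No values of T and NK cell markers were used here.

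As a description over 6 libraries and with no test, the profiles most like the 2 osteoclast-enriched members were sought among 9958 named genes with a mean of at least 5 CPM. For Tcirg1 they were Nol9 (r = 0.997), Pik3c3 (0.985) and Desi1 (0.974), and for Atp6v0d2 N4bp2 (0.987), Nsd2 (0.986) and Dapp1 (0.985). With so few libraries, 18 and 21 genes had an r of at least 0.95, and all values share the same libraries and scaling.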

How the data were processed

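The authors deposited 1 table per library with raw read counts per gene and, per the file headers, FPKM values, whose denominator was not the sum of the deposited counts. Per the submitters' processing notes, cutadapt 1.9 was used and the build was mm10, and coordinates are those of the files. The sources used here do not give the aligner, the counting program, the annotation or whether counting used the strand. Per the labels' protocols, libraries were poly(A)-selected and strand-marked with dUTP.

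Counts were tested with edgeR 4.0.16 in R 4.3.3 on all genes kept by filterByExpr (minimum count 10, minimum total 15), with TMM scaling, robust quasi-likelihood F tests and Benjamini-Hochberg adjustment over all genes tested. Standard errors are the log2 fold change divided by the square root of F, and 95% intervals use its t distribution. The script was tested on simulated data. FPKM served only to compare genes per length and for isoform ratios. Alternatives used DESeq2 1.42.0, limma 3.58.1 with sample weights, DESeq2 size factors, no filter, a replicate block, offsets that remove a smooth trend over gene length, and each library left out. Within a genotype, libraries differed by 15.1 to 33.1 chi-square units per degree of freedom, far above sampling noise.

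All 10 members are named. Of each other list, called genes (up to 4) or else the 2 of smallest raw p are named, besides the markers. Tfeb, Tfe3, Car2 and Snx10 were chosen after their values were seen. The members and lists were chosen with earlier results of these data known.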

Additional observations from a re-analysis of the deposited data

How the results depend on the processing

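The number of genes called over the whole table was 407, but 874 with DESeq2, 673 with the replicate block and 59 to 624 with a library left out. Members called numbered 4, but 0 with the length trend removed and 0 to 2 with a library left out. They stayed at 4 with the replicate block, DESeq2, DESeq2 size factors and no filter, and were 3 with limma-voom. The V1 sector gave 4, but 7 with DESeq2 and 0 to 7 with a library left out. Assembly and regulation gave 0, but 1 with the replicate block. Acidification partners gave 0, but 1 with DESeq2, 3 with the replicate block and 0 to 2 with a library left out. Estimates near 0 changed sign: Atp6v0d2 was at 0.06 with the length trend removed, at 0.07 without control replicate 3 and at 0.01 and 0.03 without cKO replicates 1 and 2, with a range of -0.08 to 0.07 over the left-out libraries. Atp6v0a2 was at 0.01 without control replicate 2 and 0.00258 without cKO replicate 2, in a range of -0.07 to 0.01. The cause was not tested, other than that leaving out a library lowers the number of samples. The other members kept their sign in all 12 alternatives. The log2 ratio of Atp6v0d2 to Atp6v0d1 differed by 0.15 to 0.34, and that of Tcirg1 to the other a genes by -0.18 to -0.02, with a library left out. Over all genes tested, deviations from the genotype mean had correlations of -0.025, -0.018 and -0.004 between libraries sharing replicate numbers 1 to 3. Pairs with unlike numbers had -0.007 to 0.025. These values weigh all genes alike, so they cannot exclude a pairing that acts on some genes. The labels do not give whether the numbers mark a pairing. With the block the ratio differences stayed at 0.24 and -0.09. An alternative with coding transcript length, chosen after seeing the data, gave 0.24 and -0.10. At 3 libraries per genotype the exact test of these ratios cannot give a p below 0.1.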

Other observations

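Beside the abundant subunits, 2 scarce paralogs that are best known from brain had all cKO libraries above all control libraries, and both were singled out after their values were seen. That pattern was found in 11.1% of all genes tested. Atp6v1g2 was at 3.52, 4.13 and 3.19 CPM in control and 5.66, 4.89 and 5.40 CPM in cKO replicates 1 to 3, a log2 difference of 0.56 ± 0.17 (SE, n = 3 per genotype, edgeR adjusted p = 0.117). Atp6v0e2 had 23, 12 and 28 reads in control and 57, 51 and 37 reads in cKO replicates 1 to 3, a difference of 1.26 ± 0.45 (SE, edgeR adjusted p = 0.178). Neither passed the test, and their abundant counterparts Atp6v1g1 and Atp6v0e had estimates of -0.34 and -0.19.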
